A study of Mus musculus with 7 samples.

Results

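The hypoxia-inducible factor (HIF) target genes Vegfa, Egln1, Egln3, Bnip3, Bnip3l, Ndrg1, Ankrd37 and Ero1a were followed in sorted β-cells that had lost Raptor. Rows were taken by gene symbol, with the brightest row kept per symbol. All 8 genes were found, each with 1 transcript cluster, among 19498 named genes on 22198 transcript clusters. A transcript cluster is the set of probes that reports 1 gene on the Affymetrix Clariom S array.

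KO β-cells came from RIP-Cre; Raptor-/-; Rosa26GFP mice and WT β-cells from their RIP-Cre; Raptor+/+; Rosa26GFP littermates, so both groups carried the Cre transgene and the GFP reporter. Animals were 2 weeks old, with strain background C57BL/6 in the labels, while the methods describe the Cre line on a mixed background. GFP+ cells were sorted from islets, and each of the 4 KO and 3 WT arrays held RNA pooled from several mice of 1 genotype. Cre was driven by the rat insulin promoter, so GFP marks cells in which that promoter has been active at any time. Raptor is the defining subunit of mTOR complex 1 (mTORC1). The comparison asks which transcripts depend on it before hyperglycaemia develops.

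HIF is a pair of an oxygen-labile α subunit and the stable partner ARNT. With oxygen present, prolyl hydroxylases mark the α subunit for destruction through the VHL ubiquitin ligase. When oxygen or hydroxylase activity falls, HIF binds hypoxia response elements and raises genes for blood vessel growth, glycolysis, mitophagy and its own hydroxylases. In many cell types mTORC1 promotes the synthesis of HIF-1α. In β-cells, lasting HIF activity is known to blunt glucose-stimulated insulin secretion.

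None of the 8 genes passed an unadjusted p of 0.05 between KO and WT. Mean signal was above WT in 6 genes (Vegfa, Egln1, Egln3, Bnip3l, Ndrg1 and Ankrd37) and below it in Bnip3 and Ero1a, with limma p between 0.148 and 0.535. The groups overlapped in every one of the 8. WT replicate 3 had the lowest signal of the 7 arrays in 5 genes, and without that array the differences of those 5 lay between -0.21 and 0.24.

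Signals are on the log2 scale of the quantile-normalized arrays, WT is subtracted from KO in each difference, and means are given with the SD over 4 KO and 3 WT arrays. Signal of the targeted gene, Rptor, was 5.99, 5.96, 4.40 and 8.54 in KO replicates 1 to 4, against 5.98, 5.26 and 6.08 in WT replicates 1 to 3, and the groups overlapped (difference 0.45 ± 0.86 SE, limma p = 0.618, with 29 of 35 splits as large in an exact permutation test). Neither labels nor methods place its probes relative to the deleted part, so this signal neither checks the labels nor goes against them. KO replicates 3 and 4 and WT replicate 3 stood apart, with median correlations to the other arrays of 0.937, 0.924 and 0.933, against 0.954 to 0.961 for the remaining 4. The 8 β-cell markers averaged 13.08 to 14.43 in KO and 14.08 to 14.45 in WT. Of these 8, 2 were above WT, 5 below and 1 level (median difference -0.42). At least 1.5-fold below were 4 of the 8, against 7.21% of all transcript clusters. Iapp counted as below through KO replicate 3 alone, at 19.35 against 19.91 on each other array. Slc2a2 was lower in KO without overlap, at 13.25 to 15.43 against 16.19 to 16.64 in WT (difference -1.94, exact permutation p = 0.0571). Pdx1 (-0.835), Ucn3 (-0.81) and G6pc2 (-0.69) were also below WT in the mean, with groups that overlapped. The insulin gene Ins2 stood at 19.91, the upper limit of the scale after normalization, on all 7 arrays, and so did the glucagon gene Gcg. The β-cell regulator Mafa was dim on all arrays, at 3.54 to 3.80 in KO and 3.44 to 3.60 in WT. Mean signal of 7 acinar markers ranged between 10.75 and 18.11 in KO and between 8.92 and 16.91 in WT. In such pooled cells, fewer cells of a type and less RNA per cell cannot be told apart.

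Promoter sequence was read from RefSeq on assembly GRCm38.p6 for 6 of the 8 genes, which had 7 annotated starts. Bnip3l and Ndrg1 had no entry. The core of the hypoxia response element, ACGTG or GCGTG, was searched on both strands of the 300 bases from 250 upstream to 50 downstream of each start. ACGTG is also the end of CACGTG, the E-box that other basic helix-loop-helix factors bind. At least 1 match was found in 6 of the 7 stretches (85.7%), against 43.8% of 32851 stretches of the same length. ACGTG alone was present in 85.7% of them, against 19.6% of all stretches, and GCGTG in 71.4%, against 32.4%. A match is a description of letters and shows no binding.

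The ACGTG matches of the 5 genes with a single annotated start are shown with the bases around them, since these are the letters that HIF recognises and the flanks differ from gene to gene. Each is printed on the strand of the gene, which is the minus strand in all 5, with the matches in capitals. CACGT and CACGC are the same cores read on the opposite strand.
Egln1, chr8:124949298-124949342: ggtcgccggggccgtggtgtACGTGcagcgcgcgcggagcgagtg
Egln3, chr12:54204079-54204123: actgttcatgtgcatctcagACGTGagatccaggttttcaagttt
Bnip3, chr7:138909590-138909634: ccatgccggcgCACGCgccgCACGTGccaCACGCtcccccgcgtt
Ankrd37, chr8:46000067-46000100: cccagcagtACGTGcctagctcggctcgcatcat
Ankrd37, chr8:45999832-45999876: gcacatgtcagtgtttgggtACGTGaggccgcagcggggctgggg
Ero1a, chr14:45318611-45318655: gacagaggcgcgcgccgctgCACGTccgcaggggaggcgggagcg
Bnip3 had the most matches, 5 in its 300 bases, because its E-box reads as ACGTG on both strands and 3 further cores are GCGTG. Egln3 had a single match, 229 bases before the start. In Ankrd37, 1 of the 4 matches lay 6 bases before the start. Vegfa had none in the 300 bases searched around its first start, and sequence further upstream was not searched. Its 2 matches lay upstream of a second annotated start inside the gene.

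**Figure D1:**
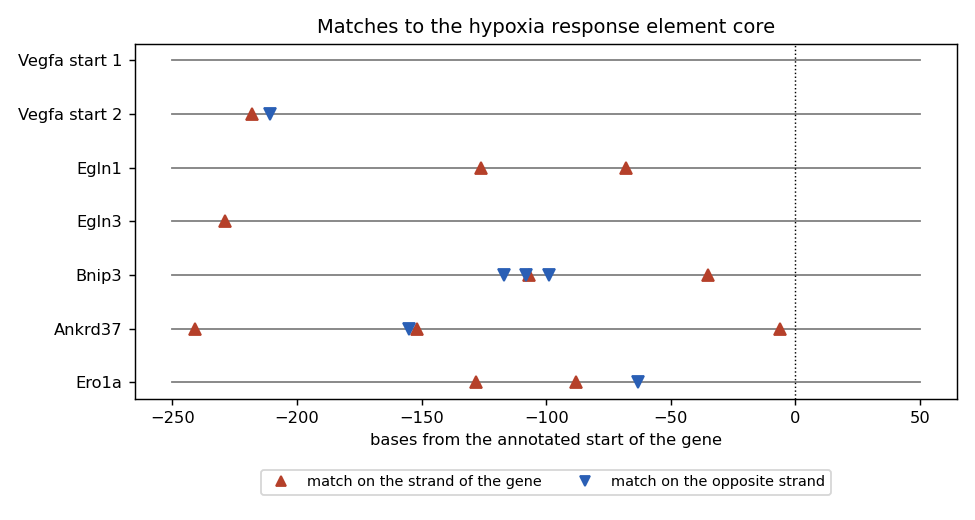
Matches to ACGTG or GCGTG around 7 annotated starts of 6 HIF target genes. The horizontal axis gives bases from the start, upward triangles are matches on the strand of the gene and downward triangles matches on the opposite strand. The first Vegfa start has no match in the 300 bases searched, and Bnip3 has 5.

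Vegfa encodes the vascular endothelial growth factor that β-cells secrete to keep islet capillaries in place. Signal was 14.72, 13.67, 14.11 and 13.97 in KO replicates 1 to 4, against 14.36, 13.85 and 13.33 in WT replicates 1 to 3. The brightest array was a KO one and the dimmest a WT one, while KO replicate 2 was below 2 of the 3 WT arrays. Vegfa averaged 14.12 ± 0.442 in KO and 13.85 ± 0.511 in WT, a difference of 0.27 ± 0.34 SE with a 95% interval of -0.52 to 1.07 (limma p = 0.449, exact permutation p = 0.486). On the fold scale the interval reached from 0.696 to 2.09, so neither a decrease nor an increase of moderate size is outside it. Of the 35 ways to split the arrays, 17 gave a difference at least as large. Vegfa lay at the 98.0th percentile of mean signal, so a dim probe set does not limit its value. Without WT replicate 3 the difference was 0.02.

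Egln1 encodes PHD2, the main oxygen-sensing prolyl hydroxylase of HIF and itself a HIF target, which closes a feedback loop. Its signal was 10.55, 9.95, 9.41 and 9.96 in KO replicates 1 to 4, against 10.46, 9.90 and 7.92 in WT replicates 1 to 3. A single WT array set the gap: WT replicates 1 and 2 lay within the KO range, and WT replicate 3 lay far below all the others. The means were 9.97 ± 0.469 in KO and 9.43 ± 1.34 in WT, with a difference of 0.54 ± 0.60 SE (95% interval -0.85 to 1.94, limma p = 0.394, exact permutation p = 0.543). The difference was -0.21 when WT replicate 3 was left out, with KO replicate 3, the lowest KO array, still in the fit. Between arrays of equal number KO was above WT in all 3 pairs, by 0.09, 0.05 and 1.49, and the difference with the replicate block was 0.54 ± 0.37 SE (adjusted p = 0.933). Without the 3 arrays that stood apart it was 0.07.

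Egln3 encodes PHD3, a related hydroxylase that is strongly hypoxia-inducible in many cells. It had 5.03, 4.89, 5.69 and 4.84 in KO replicates 1 to 4, against 4.85, 4.89 and 4.07 in WT replicates 1 to 3. KO replicate 3 was the highest array and WT replicate 3 the lowest, and the other 5 lay between 4.84 and 5.03. Egln3 averaged 5.11 ± 0.393 in KO and 4.60 ± 0.460 in WT, and the difference of 0.51 ± 0.31 SE gave the smallest p of the 8 genes (95% interval -0.23 to 1.24, limma p = 0.148, exact permutation p = 0.229). Without WT replicate 3 the difference was 0.24, and without all 3 arrays that stood apart it was 0.09. Egln3 was dim, at the 35.5th percentile of mean signal. Background can compress changes in transcript level at such signals, which was not measured here.

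**Figure D2:**
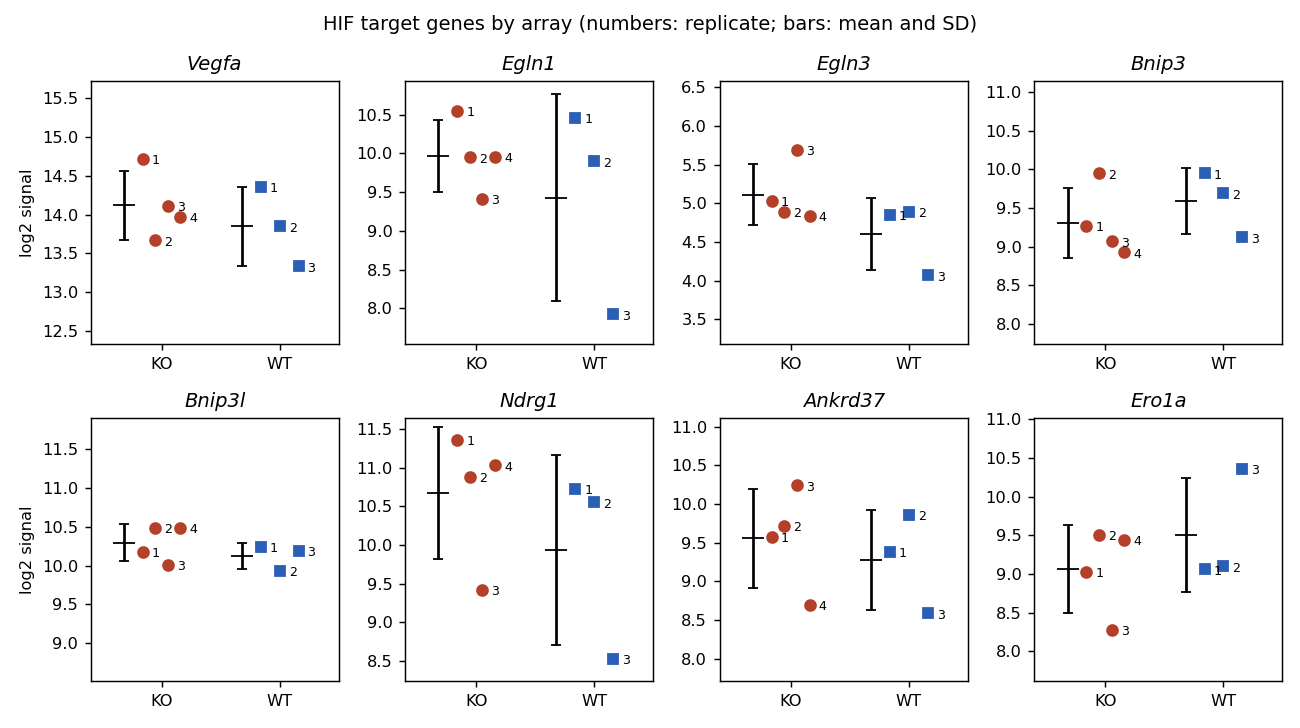
Log2 signal of the 8 HIF target genes on each array, with KO (circles) left of WT (squares) and replicate numbers beside the points. Horizontal ticks and bars are the mean and SD of 4 KO and 3 WT arrays, and all panels span the same height in log2 units. WT replicate 3 is the lowest point in Vegfa, Egln1, Egln3, Ndrg1 and Ankrd37 and the highest in Ero1a.

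Bnip3 and Bnip3l encode related outer mitochondrial membrane proteins that recruit the autophagy machinery to mitochondria. Bnip3 was 9.27, 9.95, 9.07 and 8.93 in KO replicates 1 to 4, against 9.95, 9.69 and 9.12 in WT replicates 1 to 3. KO replicate 2 was level with the highest WT array, and the other 3 KO arrays were below at least 2 of the 3 WT arrays. The means of 9.30 ± 0.450 in KO and 9.58 ± 0.425 in WT differed by -0.28 ± 0.32 SE (95% interval -1.04 to 0.48, limma p = 0.416, exact permutation p = 0.429). Bnip3 was also 1 of the 2 genes whose difference moved away from 0 without WT replicate 3, to -0.51.

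Bnip3l, also called NIX, had 10.18, 10.49, 10.01 and 10.49 in KO replicates 1 to 4, against 10.24, 9.93 and 10.19 in WT replicates 1 to 3. It was the steadiest of the 8 genes, with a range of 0.56 over the 7 arrays. Its SD within groups, 0.21, was at the 11.9th percentile of all transcript clusters. The difference of 0.17 ± 0.22 SE therefore had the narrowest interval, -0.34 to 0.68, which on the fold scale is 0.792 to 1.61 (limma p = 0.451, exact permutation p = 0.286).

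Ndrg1, a cytoplasmic protein induced by hypoxia and by cell stress, showed the largest mean difference of the 8 and also the largest spread. Signal was 11.36, 10.88, 9.42 and 11.03 in KO replicates 1 to 4, against 10.73, 10.55 and 8.53 in WT replicates 1 to 3. Each group had 1 array far below the rest, replicate 3 in both, and the remaining 3 KO arrays lay above all WT arrays. Ndrg1 averaged 10.67 ± 0.859 in KO and 9.94 ± 1.22 in WT, a difference of 0.74 ± 0.66 SE, or 1.67-fold (95% interval -0.80 to 2.27, limma p = 0.298, exact permutation p = 0.4). A fit that blocks on the replicate number removes what equal numbers share and leaves KO replicate 4 out of the comparison. In it the difference was 0.62 ± 0.24 SE, limma's unadjusted p was 0.0531 and the adjusted p was 0.933. KO was above WT in each of the 3 pairs, by 0.63, 0.33 and 0.89. Among the other HIF target genes this held only for Egln1. Vegfa, Bnip3, Bnip3l, Ankrd37 and Ero1a had pairs in both directions, and Egln3 was level between the arrays numbered 2. Without WT replicate 3 the difference of Ndrg1 was 0.03, and without the 3 arrays that stood apart it was 0.48.

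Ankrd37 encodes a small ankyrin-repeat protein and is a direct HIF-1 target in human cells. It had 9.58, 9.72, 10.24 and 8.70 in KO replicates 1 to 4, against 9.38, 9.86 and 8.59 in WT replicates 1 to 3. KO replicate 4 was almost as low as WT replicate 3, and WT replicate 2 exceeded 3 of the 4 KO arrays. The difference between 9.56 ± 0.641 in KO and 9.28 ± 0.640 in WT was 0.28 ± 0.43 SE (95% interval -0.73 to 1.30, limma p = 0.535, exact permutation p = 0.543). It turned to -0.06 without WT replicate 3.

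Ero1a encodes the endoplasmic reticulum oxidase that passes electrons from protein disulfide isomerase to oxygen and that hypoxia is known to raise. It was 9.03, 9.51, 8.28 and 9.44 in KO replicates 1 to 4, against 9.06, 9.10 and 10.36 in WT replicates 1 to 3. Here WT replicate 3 was the highest array, opposite to its place in Vegfa, Egln1, Egln3, Ndrg1 and Ankrd37. The means were 9.07 ± 0.567 in KO and 9.51 ± 0.739 in WT, and the difference was -0.45 ± 0.44 SE (95% interval -1.46 to 0.57, limma p = 0.338, exact permutation p = 0.486). It was -0.02 without WT replicate 3 and 0.19 without the 3 arrays that stood apart.

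**Figure D3:**
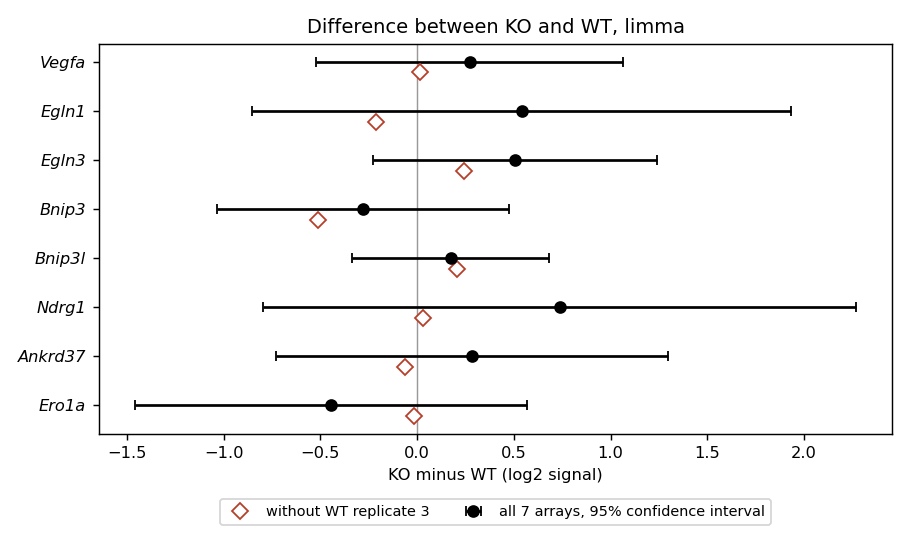
KO minus WT of the 8 HIF target genes in log2 units. Filled circles and bars are the limma difference over all 7 arrays with its 95% interval, and open diamonds the difference without WT replicate 3. Each interval includes 0, and the diamonds of Vegfa, Ndrg1, Ankrd37 and Ero1a lie between -0.06 and 0.03.

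Of the 8 genes, 0 passed an unadjusted p of 0.05 in limma, 0 passed an adjusted p of 0.05 and 0 had groups that did not overlap. Over all transcript clusters, 2.18% passed the unadjusted p (484 of 22198), 1.01% being higher (225) and 1.17% lower (259) in KO, 0.0% passed the adjusted p and 3.93% had groups that did not overlap. Only Ndrg1 reached 1.5-fold, 1 of 8, against 14.1% of all transcript clusters in either direction and 6.84% that were 1.5-fold higher and 7.21% that were 1.5-fold lower in KO. The 6 genes above WT in the mean compare with 49.7% of all transcript clusters. The median difference of the 8 was 0.28, against 0.00 over all. By the exact permutation test, whose smallest p is 0.0286, the p-values lay between 0.229 and 0.543.

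The 8 genes did not deviate as 1 block from array to array. Averaged over the 8, signal was 9.97, 9.88, 9.53 and 9.67 in KO replicates 1 to 4, against 9.88, 9.72 and 9.01 in WT replicates 1 to 3. WT replicate 3 had a mean deviation of -0.65 from the average of the 7 arrays, over the 8 genes. It was the lowest array in 5 of the 8 genes, against 17.1% of all transcript clusters. Without it the median difference of the 8 was -0.0013, and without the 3 arrays that stood apart it was 0.09. With those 3 left out the differences were 0.10 for Vegfa, -0.21 for Bnip3, 0.25 for Bnip3l and 0.03 for Ankrd37, and none of the 8 passed p 0.05. KO replicate 1 was highest in Vegfa, Egln1 and Ndrg1, while KO replicate 3 was highest in Egln3 and Ankrd37. KO replicate 3 at the same time had deviations of -0.94 in Ndrg1 and -0.98 in Ero1a.

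WT replicate 3 also had the highest or lowest mean signal in several lists of other cell type markers. Mean signal of the 5 mesenchymal markers was 4.85 to 6.21 in KO arrays and 5.24, 5.31 and 7.04 in WT replicates 1 to 3. The matrix gene Dcn stood at 10.15 on WT replicate 3 and between 4.92 and 6.39 on the other arrays. Col1a2 was highest there too, at 6.96. Col1a1 and Col3a1 were instead highest on KO replicate 4 (7.41 and 7.24) and Pdgfrb on KO replicate 3 (5.32). The 2 measured glial markers averaged 4.65 to 4.97 in KO and 4.89, 4.69 and 5.88 in WT replicates 1 to 3. The 3 δ- and PP-cell markers averaged 14.45 to 15.66 in KO and 14.80, 14.31 and 13.17 in WT replicates 1 to 3. The mean of the 7 acinar markers was also lowest there, at 8.92, although Cpa1 (7.65) and Prss2 (7.49) were lowest on KO replicate 3. Endothelial markers, 7 of 7 measured, averaged 4.63 to 5.34 in KO and 4.63 to 4.90 in WT, below the array medians of 5.52 to 5.66. Their percentiles of mean signal ran from 8.17 (Plvap) to 51.9 (Flt1). The part of these cell types in the HIF target signals was not tested.

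**Figure D4:**
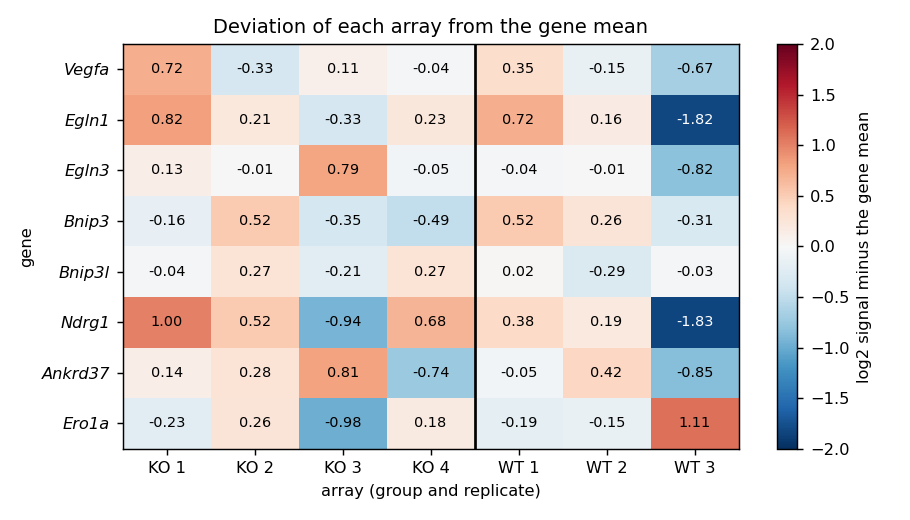
Deviation of each array from the mean of the 7 arrays for the 8 HIF target genes, in log2 units, with KO arrays left of the black line and WT arrays right of it. WT replicate 3 is at -1.82 in Egln1, -1.83 in Ndrg1 and 1.11 in Ero1a, while Bnip3l stays within 0.29 of its mean on every array.

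The genes differed in how much they varied within groups. SD within groups was 1.02 for Ndrg1 and 0.92 for Egln1, at the 90.0th and 87.0th percentiles of all transcript clusters, whose median SD was 0.433. Ankrd37 and Ero1a each had an SD of 0.64, and Vegfa, Bnip3 and Egln3 lay between 0.42 and 0.47. Between genes, profiles were compared as the root mean square difference of centred log2 signals over the 7 arrays, where 0 means equal. Of 28 pairs, the most alike were Egln3 with Ankrd37 (0.323) and Egln1 with Ndrg1 (0.342). Bnip3 and Bnip3l, related in sequence, differed by 0.433. Ero1a was least like the others, at 1.25 from both Egln1 and Ndrg1, and Vegfa was closest to the mean profile of the 8 (0.293). Outside the 8, the named genes nearest to that mean profile were Asxl3 (0.0703), Ercc6 (0.0888), Yap1 (0.0896), Otud1 (0.094) and Tmc5 (0.098). These distances describe 7 arrays that share sorting and labelling, and no test was made of them.

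Genes around the 8 in the HIF pathway were taken from lists. They were fitted by limma on the quantile-normalized values of all 7 arrays, without a block or array weights. There 0 of them passed an unadjusted p of 0.05, against 2.18% of all transcript clusters. The adjusted p was 1 for each in that fit, and the alternatives in which Hif1an, Siah1a, Slc2a1 or Map1lc3b did pass the unadjusted limit are given beside them. Hif1a, which encodes the oxygen-labile HIF-1α, was 10.32, 10.31, 12.24 and 7.59 in KO replicates 1 to 4, against 10.56, 10.73 and 9.87 in WT replicates 1 to 3. The highest and the lowest arrays were both KO, and the difference was -0.27 ± 0.96 SE (limma p = 0.786, exact permutation p = 0.8). Epas1, which encodes HIF-2α, had equal means in both groups (difference 0.00 ± 0.29 SE), and its partner Arnt differed by -0.32 (limma p = 0.261, exact permutation p = 0.229). Of the 5 subunit genes, 1 was above WT, 3 below and 1 level, with a median of -0.22. HIF protein, which oxygen controls after translation, was not measured.

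Of 10 genes for HIF turnover, 4 were above WT and 6 below, with a median of -0.07. Hif1an, which encodes the asparaginyl hydroxylase FIH that blocks HIF transactivation, was 8.17, 8.52, 9.38 and 9.48 in KO replicates 1 to 4, against 8.34, 8.06 and 7.63 in WT replicates 1 to 3. Only KO replicate 1 overlapped WT, by lying below WT replicate 1, and the difference was 0.88 ± 0.38 SE (limma p = 0.0517, exact permutation p = 0.114). The limma p was 0.0389 with the values as deposited, 0.0371 after median centring and 0.0171 without KO replicate 1. It was 0.166 with the replicate block (difference 0.69), 0.133 with array weights (0.52), 0.0883 by the methods' test and 0.157 without WT replicate 3, and no adjusted p passed 0.05. Without the 3 arrays that stood apart the difference was 0.15, and the unadjusted p was 0.601. Vhl, the substrate-binding part of the ligase, differed by 0.03 (exact permutation p = 0.943). Egln2, the hydroxylase PHD1, differed by -0.36 (exact p = 0.314), the scaffold gene of the ligase, Cul2, by -0.31 (exact p = 0.171) and the ubiquitin ligase gene Siah1a by -0.78 (exact p = 0.143). For Siah1a the difference was -1.06 without KO replicate 2, where the unadjusted limma p was 0.0269. It was -0.48 without KO replicate 4 or with the replicate block, -0.36 with array weights and -0.06 without the 3 arrays that stood apart.

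Among 29 other HIF targets measured of 32 listed, 18 were above WT, 10 below and 1 level, with a median of 0.08. At least 1.5-fold above were 3 and at least 1.5-fold below 3, against 6.84% and 7.21% of all transcript clusters. Among those below, Pgk1 (10.76) and Tpi1 (9.94) were highest on WT replicate 3. Among those above, Aldoa was highest on KO replicate 3 (14.25). The glucose transporter gene Slc2a1 was 8.39, 9.87, 8.39 and 11.31 in KO replicates 1 to 4, against 7.64, 8.69 and 7.45 in WT replicates 1 to 3 (difference 1.56 ± 0.75 SE, limma p = 0.0712, exact permutation p = 0.171). With the replicate block its difference was 0.96, limma's unadjusted p was 0.00973 and the adjusted p was 0.933. Leaving out KO replicate 1 gave an unadjusted p of 0.0413, and leaving out KO replicate 3 one of 0.0394. Each of the other 5 arrays left out in turn gave an unadjusted p between 0.0602 and 0.178, and the methods' test gave 0.139. Without the 3 arrays that stood apart the difference was 0.96, as it was without KO replicate 4, and the unadjusted p was 0.15 and 0.112. Ddit4, the mTORC1 inhibitor REDD1, differed by -0.97 (exact p = 0.4), and the lactate dehydrogenase gene Ldha by -0.20 (exact p = 0.571). For Ddit4 the difference was -0.36 without KO replicate 4 or with the replicate block, -1.49 without KO replicate 3, -0.57 without WT replicate 3 and -0.43 without the 3 arrays that stood apart. Pfkfb3, which makes the glycolysis activator fructose-2,6-bisphosphate, differed by 0.62 (exact p = 0.2), and the glycoprotein gene Stc2, near the bottom of the scale, by 0.47 (exact p = 0.229).

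In the VEGF family and its receptors, 8 of 9 genes were measured, of which 4 were above WT, 3 below and 1 level (median 0.06). Kdr, the main VEGF-A receptor of endothelium, was dim at 3.99, 3.80, 5.97 and 5.08 in KO replicates 1 to 4, against 4.31, 4.29 and 3.33 in WT replicates 1 to 3 (difference 0.74, exact p = 0.314). Its difference was 0.31 without KO replicate 3 and -0.40 without the 3 arrays that stood apart. The lymphatic receptor gene Flt4 differed by 0.34 (exact p = 0.171) and its ligand gene Vegfc by -0.21 (exact p = 0.343). Among 9 of 10 genes for disulfide formation, 4 were above and 5 below (median -0.15). Ero1b, the Ero1 form enriched in β-cells, was 16.53, 17.65, 17.28 and 16.95 in KO replicates 1 to 4, against 17.38, 17.35 and 17.62 in WT replicates 1 to 3 (difference -0.35, exact p = 0.314). Gpx7 and Gpx8, peroxidases of the endoplasmic reticulum, differed by -0.24 (exact p = 0.314) and -0.38 (exact p = 0.4).

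The 3 other NDRG genes, which encode homologues of NDRG1, had a median difference of -1.62 that came from WT replicate 3. There Ndrg2 was 9.32, Ndrg4 10.01 and Ndrg3 16.22, while Ndrg2 lay between 3.86 and 5.11, Ndrg4 between 4.81 and 5.32 and Ndrg3 between 13.97 and 15.40 on the other arrays. On the same array Ndrg1 was at its lowest. The smallest limma p of the 3 was 0.188, and without WT replicate 3 the median was -0.0075. Of 12 mitophagy genes measured, of 15 listed, 6 were above WT and 6 below (median -0.07). Phb2, an inner membrane mitophagy receptor, differed by 1.34 (exact p = 0.171), Fkbp8, an outer membrane one, by 0.78 (exact p = 0.229) and the autophagosome gene Map1lc3b by -0.78 (exact p = 0.2). Phb2 differed by 0.53 without KO replicate 3, by 0.83 with array weights and by 0.39 without the 3 arrays that stood apart. Fkbp8 differed by 0.31 without WT replicate 3. For Map1lc3b the unadjusted limma p was 0.0292 with array weights (difference -0.96), 0.0177 without WT replicate 3 (-1.20) and 0.0367 without KO replicate 1 (-1.05). It was 0.138 with the replicate block (-0.62), and the highest p among the leave-outs was 0.288, without WT replicate 1 (-0.57).

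**Figure D5:**
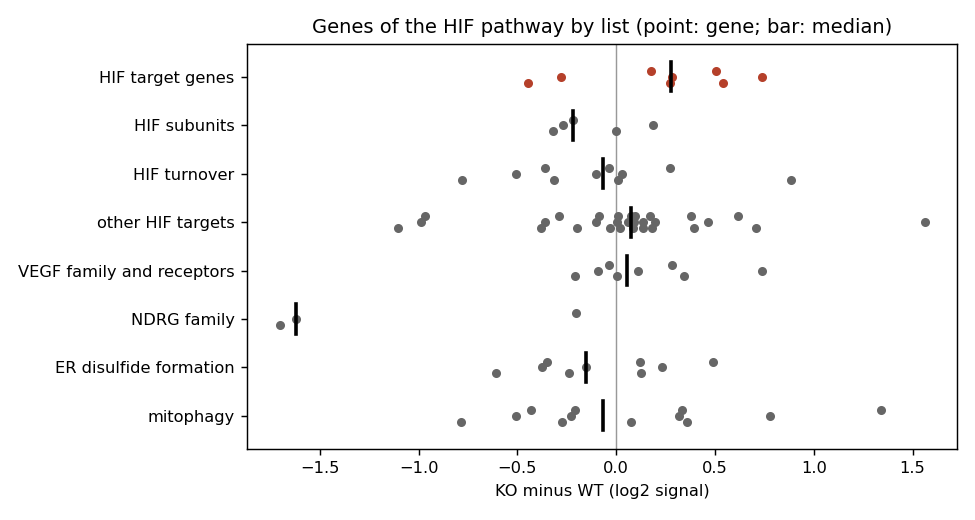
KO minus WT in log2 units for the 8 HIF target genes and 7 lists of other genes in the HIF pathway. Each point is a gene, vertical bars are medians, and the HIF target genes are in red. The median of the 8 is 0.28, that of the 29 other HIF targets 0.08, and Ndrg2 and Ndrg4 stand at the far left.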

How the data were processed

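RNA of sorted β-cells was hybridised to 7 Affymetrix Clariom S arrays (4 KO, 3 WT). The authors deposited 1 log2 value per transcript cluster and array, from 2.24 to 19.93. Affymetrix Expression Console and MAS5 appear in the submitters' processing notes and GeneSpring in the methods. No source used here says which of them gave the values, or how background was corrected and probes summarised. The labels list several amplification kits without assigning them to samples. Values at 19.93 are bounds, but no HIF target gene stood there. On KO replicate 3 the highest deposited value was 19.81, and on every other array it was 19.93. Detection calls were not used, so signal over background is unknown, and the number of arrays limits the precision. All deposited sample columns were used.

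Medians of the arrays lay between 5.52 and 5.66, and values were quantile normalized. The limma package (version 3.58.1, R 4.3.3) was used to fit KO against WT without covariates, by lmFit and eBayes with two-sided tests, on all 22198 transcript clusters, with Benjamini-Hochberg adjustment over all. A fit on simulated data with known changes recovered their direction and size on average. The simulated noise was normal and independent between arrays, so no simulated array stood apart as some did here. Single genes were also compared by an exact permutation test (two-sided, absolute mean difference) that used every one of the 35 ways to divide the arrays 4 against 3, called exact p. The platform table gave 1 symbol for 19565 transcript clusters and none for 2633, and all 19565 matched RefSeq of GRCm38.p6. The members and lists were chosen with earlier results of these data known. Named genes were the 8 members, 12 fixed genes, up to 3 genes of each other list with the smallest p, and the 5 nearest profiles.

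KO and WT arrays share the numbers 1 to 3. Deviations from group means correlated at 0.16, 0.243 and 0.165 between equal numbers and between -0.181 and 0.0233 between unequal ones. All 3 pairs passed the limit of 0.1, so equal numbers were treated as a block, although no source says what they share. Deviations from a group mean cancel out within the group, so these correlations depend on each other. They cannot establish that the numbers pair the arrays. The fit with this replicate block was an alternative. Others were cyclic loess, median centring or no further normalization, leaving out the lowest 25% of signals, eBayes with trend and robust variances, array weights, the methods' t-test (two-sided Student) and leaving out each array in turn. Leaving out the 3 arrays that stood apart was chosen after seeing the data.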

Additional observations from a re-analysis of the deposited data

Results flagged for a closer look

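None of the 8 HIF target genes had a KO array that stood apart from the other 3 by Dixon's test at the 95% level. Of 37 KO groups tested, 2 did, where chance gives about 1.85. For the peroxidase gene Gpx8 the gap of the lowest array was 0.95 of the range, with KO replicate 1 at 5.02 and the other KO arrays between 5.76 and 5.80. For the mitophagy receptor gene Phb2 the gap of the highest array was 0.848 of the range, with KO replicate 3 at 14.65 and the other KO arrays between 11.16 and 11.69. The 3 WT arrays were too few for this test.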

How the results depend on the processing

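Of 128 differences of the 8 HIF target genes under 16 alternatives, 125 kept their direction and their side of p 0.05. The low-signal filter, the trend and robust variances and the methods' t-test left every difference unchanged, so no direction could turn there. The replicate block gave the same differences as leaving out KO replicate 4. The 128 are therefore not independent checks of direction. The number that passed an unadjusted p of 0.05 was 0 in every alternative, and the lowest limma p was 0.0531, for Ndrg1 with the replicate block. The block changed no call of the 8. Egln1 (-0.21) and Ankrd37 (-0.061) turned without WT replicate 3, and Ero1a turned to 0.19 without the 3 arrays that stood apart. Leaving out 1 array in turn gave -0.21 to 1.06 for Egln1, -0.06 to 0.57 for Ankrd37, 0.03 to 1.15 for Ndrg1, 0.02 to 0.53 for Vegfa, 0.24 to 0.65 for Egln3, 0.08 to 0.27 for Bnip3l, -0.51 to -0.10 for Bnip3 and -0.67 to -0.02 for Ero1a. With 1 transcript cluster per gene, a mean over transcript clusters of a symbol changed nothing and was not run.

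Without the 3 arrays that stood apart, differences turned to -0.21 for Hif3a, -0.40 for Kdr, 0.34 for Ndrg2, 0.12 for Ndrg3, 0.14 for Ndrg4 and 0.066 for Gpx7. With the replicate block, Hif1a turned to 0.57, Hif3a to -0.01 and Rptor to -0.32, and leaving out KO replicate 4 gave the same values. Array weights gave -0.014 for Hif3a and 0.059 for Ndrg3. Leaving out 1 array in turn gave -0.98 to 0.57 for Hif1a, -0.01 to 0.33 for Hif3a and -0.60 to 0.52 for Ndrg3. The difference of Vhl was -0.12 without WT replicate 3, -0.17 without KO replicate 1 and -0.015 without KO replicate 2. The cause of these turns was not tested. Over all transcript clusters, an unadjusted p of 0.05 was passed by 300 (without WT replicate 3) to 697 (without KO replicate 1), and an adjusted p of 0.05 by 0 in every alternative.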
